A study of Mus musculus with 6 samples.

Results

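The S100 genes encode small calcium-binding proteins. The 8 described here were listed by name as members of the family, S100a8, S100a9, S100a6, S100a11, S100a10, S100a4, S100a1 and S100a13, and all 8 were found among the 27998 gene columns of the deposited single-cell table, which held 17 S100 genes. Expression was measured in iGMPs, mouse granulocyte-macrophage progenitors from the bone marrow of Lys-GFP mice on a C57BI/6 background that were kept in an immature state by a fusion of HOXA9 with the hormone-binding part of a mutant estrogen receptor. The cells grew with SCF, and β-estradiol holds the HOXA9 fusion active. In the CAF-1 OFF arm, a clonal line carried an shRNA against Chaf1b, a subunit of the CAF-1 histone chaperone, which IPTG induced, and estradiol was kept in the medium. In the HOXA9 OFF arm, a clone with a control shRNA was washed free of estradiol. Each arm was sampled at 0 h, 48 h and 96 h, giving 6 libraries of live sorted cells with 1 library per group. Both arms thus carry the HOXA9 fusion, each line is 1 clone, and the shRNA differed between arms already at 0 h. With no replicate library, no difference between groups could be tested: every interval below is an exact 95% interval that covers counting error only.

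S100 proteins fold around paired EF hands, take up calcium, expose a binding surface and then attach to partner proteins, among them the annexins. S100a8 and S100a9 form calprotectin, one of the most abundant cytosolic complexes of neutrophils, which sequesters metal ions and acts as an alarm signal when released. The other members are known mostly as intracellular adaptors of membranes, the cytoskeleton and the cell surface in many cell types.

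After removal of barcodes with few genes or a high mitochondrial share, 5872 cells were kept, between 473 and 1510 per library, with 3524285 to 5589486 UMIs (unique molecules counted) per library. The share of barcodes removed ran from 0.198% to 66.2%. The median depth per cell was lowest in the HOXA9 OFF library at 96 h, at 2043.5 UMIs, and highest in the HOXA9 OFF library at 0 h, at 8660 UMIs. Chaf1b, the target of the shRNA, was at 35.6, 3.22 and 6.49 CPM (UMIs of a gene per 1000000 UMIs of its library) at 0 h, 48 h and 96 h of CAF-1 OFF and also went from 51.6 to 15.3 and 1.13 CPM in HOXA9 OFF, where no shRNA targets it. A list of 8 secondary-granule and mature neutrophil genes summed to 33.5, 703 and 1168 CPM over the CAF-1 OFF time course and to 28.6, 4506 and 37475 CPM over that of HOXA9 OFF. Ltf, which encodes lactoferrin, had 0 UMIs in all CAF-1 OFF libraries, and Mmp8 supplied most of the list's UMIs there. Primary granule genes, which mark GMPs and promyelocytes, stood at 6448 and 5581 CPM at 0 h, while lists of erythroid, lymphoid and non-blood genes reached at most 29.9, 32.4 and 4.63 CPM in any library.

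All 8 members lie on chromosome 3 (GRCm38.p6, RefSeq). S100a1, at 90511034 to 90514330 on the minus strand, and S100a13, at 90514233 to 90524581 on the plus strand, are arranged head to head and overlap by 98 bases. S100a4 (90603770 to 90606045), S100a6 (90612894 to 90614414), S100a8 (90669071 to 90670034) and S100a9 (90692630 to 90695721, minus strand) follow within 184688 bases of the start of S100a1. S100a11 (93520496 to 93526288) and S100a10 (93555117 to 93564645) lie 2824774 bases beyond S100a9 and 28828 bases from each other. The 250 bases before the RefSeq start of the 4 members that were most abundant in HOXA9 OFF at 96 h are shown because these members went up together in that arm, at chr3:90668821-90669070 for S100a8, chr3:90695722-90695971 for S100a9 (minus strand), chr3:90612644-90612893 for S100a6 and chr3:93520246-93520495 for S100a11. Capitals mark matches to any of 4 motifs looked for on both strands, TTNNGNAA (C/EBP), GAGGAAGT (PU.1), CCGGAAGT (ETS) and TATAAA (the core promoter box).
S100a8: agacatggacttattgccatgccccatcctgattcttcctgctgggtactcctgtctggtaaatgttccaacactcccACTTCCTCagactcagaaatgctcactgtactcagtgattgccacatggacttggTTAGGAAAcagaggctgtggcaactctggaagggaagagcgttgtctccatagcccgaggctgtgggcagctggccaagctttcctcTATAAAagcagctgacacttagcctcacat
S100a9: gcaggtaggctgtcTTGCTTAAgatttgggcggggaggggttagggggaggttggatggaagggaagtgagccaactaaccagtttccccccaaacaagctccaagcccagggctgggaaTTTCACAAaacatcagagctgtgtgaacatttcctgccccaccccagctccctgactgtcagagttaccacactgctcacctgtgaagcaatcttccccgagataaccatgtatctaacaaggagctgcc
S100a6: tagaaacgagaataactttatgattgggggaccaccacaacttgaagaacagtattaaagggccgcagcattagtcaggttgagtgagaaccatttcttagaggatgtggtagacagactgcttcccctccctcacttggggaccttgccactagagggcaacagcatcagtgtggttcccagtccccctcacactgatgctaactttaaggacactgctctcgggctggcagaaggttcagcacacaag
S100a11: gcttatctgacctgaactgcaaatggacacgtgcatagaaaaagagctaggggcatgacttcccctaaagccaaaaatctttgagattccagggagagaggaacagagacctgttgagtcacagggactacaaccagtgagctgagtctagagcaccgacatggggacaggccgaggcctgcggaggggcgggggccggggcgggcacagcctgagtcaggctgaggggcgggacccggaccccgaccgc
In the window of 300 bases that also takes in the first 50 of the transcript, S100a8 held a C/EBP match 117 bases before the start, a PU.1 match on the opposite strand 172 bases before it and a TATA box 30 bases before it. S100a9 held C/EBP matches on the opposite strand 236 and 130 bases before the start, and a TATAAA at the annotated start itself. No match was in the windows of S100a6, S100a11, S100a1 or S100a13, and that of S100a4 held a PU.1 and a TATA match. Of 32851 RefSeq promoters of this length, 40.7% held the C/EBP, 3.20% the PU.1, 3.89% the ETS and 13.6% the TATA letters, against 2, 2, 0 and 3 of the 7 members with a promoter sequence. S100a10 had no entry.

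S100a8 and S100a9, the calprotectin subunits, had the widest range of the 8 members. S100a8 was not seen at 0 h of CAF-1 OFF, where 0 UMIs have an interval reaching 0.875 CPM. Its level there was 14.3 CPM after 48 h, with an interval from 11.4 to 17.8, and 22.4 CPM after 96 h, with an interval from 18.6 to 26.8. The HOXA9 OFF library at 0 h held a single UMI, or 0.239 CPM, and the later libraries of that arm stood at 4001 CPM (3947 to 4055) and 65259.5 CPM (64993 to 65527). The HOXA9 OFF library at 96 h therefore stood far above the other 5. The intervals of the 48 h and 96 h libraries were separate in both arms, but they treat each UMI as independent. In CAF-1 OFF the 80 and 121 UMIs lay in 44 and 51 cells, and 9 cells held 50% of them at each time. The intervals for the share of cells with a UMI overlapped there, at 3.47% to 6.32% after 48 h and 4.196% to 7.295% after 96 h. A rise of S100a8 from 48 h to 96 h of CAF-1 OFF was thus not established.
S100a9 followed the same order at a lower level. It had 0, 6 and 12 UMIs in CAF-1 OFF, or 0, 1.07 (0.394 to 2.34) and 2.23 CPM (1.15 to 3.89), so that its 48 h and 96 h levels in that arm could not be separated at this depth. In HOXA9 OFF it stood at 0, 1815.5 (1779 to 1852) and 48173 CPM (47944 to 48403). By level, S100a8 and S100a9 ranked 44 and 105 among all genes of the HOXA9 OFF library at 48 h, and 1 and 2 at 96 h. The assay counts the 3′ end of a transcript once whatever its length, so levels of different genes were not scaled by length. How well each gene is captured was not measured, so ranks and ratios between genes compare counts only. Summed counts of a library cannot tell more expressing cells from more RNA per cell.

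**Figure D1:**
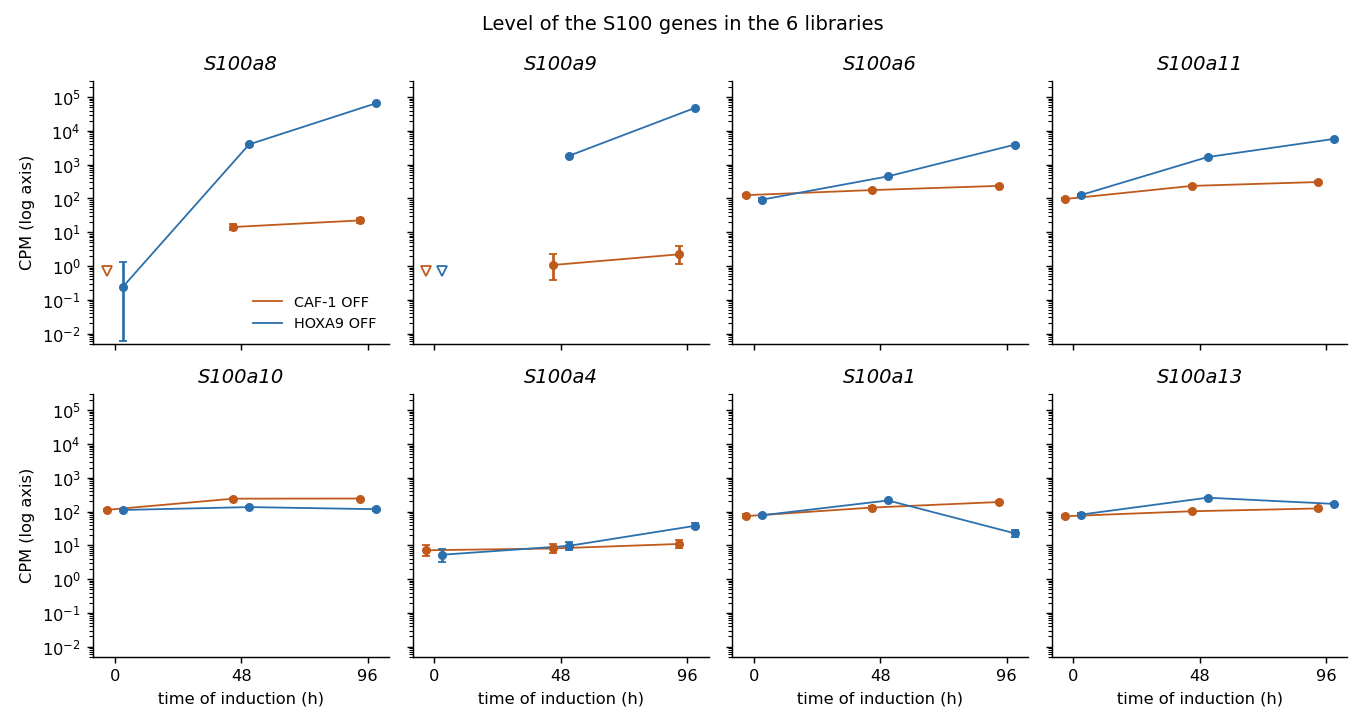
Level of each of the 8 S100 genes in the 6 libraries (log axis, CPM) against hours after the switch, CAF-1 OFF in orange and HOXA9 OFF in blue. Points are library values with exact 95% Poisson intervals, and open triangles mark 0 UMIs, drawn at the level of 3 counts. The HOXA9 OFF library at 96 h is highest for S100a8 (65259.5 CPM), S100a9, S100a6, S100a11 and S100a4 and lowest for S100a1 (22.7 CPM).

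S100a6 and S100a11, which bind annexins, were present at 0 h and were the next most abundant members at 96 h of HOXA9 OFF. Over the CAF-1 OFF time course S100a6 measured 125.5, 177.5 and 236 CPM, and over that of HOXA9 OFF 91.9, 452.5 and 3905.5 CPM. S100a11 measured 96.6, 236 and 307 CPM over the former and 127, 1683 and 5802 CPM over the latter. Both were thus lowest at 0 h and highest at 96 h within each arm, with separate intervals between neighbouring times. The timing differed in HOXA9 OFF: S100a11 was 13.3-fold (12.1 to 14.5) above 0 h at 48 h and a further 3.45-fold higher at 96 h, whereas S100a6 was 4.93-fold (4.42 to 5.50) above 0 h at 48 h and a further 8.63-fold higher at 96 h. At 96 h the 2 were alike in their distance from 0 h, S100a11 at 45.7-fold (41.9 to 49.9) and S100a6 at 42.5-fold (38.4 to 47.2). They ranked 16 and 26 among all genes of that library.

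S100a10 forms a complex with annexin A2 at the plasma membrane and, unlike its relatives, does not need calcium for it. The CAF-1 OFF libraries held 112, 240 and 242 CPM of S100a10, and the HOXA9 OFF libraries 111, 135 and 117 CPM. The CAF-1 OFF levels at 48 h and 96 h were thus 2.14-fold (1.93 to 2.38) and 2.16-fold (1.95 to 2.41) above 0 h, while HOXA9 OFF at 96 h differed from 0 h by 1.06-fold with an interval from 0.923 to 1.21. S100a10 was the only member whose highest level was in CAF-1 OFF. The direction of its small HOXA9 OFF difference depended on scaling, with a log2 ratio at 96 h of 0.07 by total UMIs, 0.60 by median-of-ratios factors and -0.33 where mitochondrial and ribosomal protein genes were left out of the total.

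S100a4, known for binding non-muscle myosin and for its expression in motile cells and macrophages, was the scarcest member at 0 h after S100a8 and S100a9. It had 30, 45 and 59 UMIs in CAF-1 OFF and 22, 51 and 133 UMIs in HOXA9 OFF, the last being 37.7 CPM (31.6 to 44.7). The intervals of the CAF-1 OFF libraries overlapped, and the 96 h level of HOXA9 OFF was 7.19-fold (4.56 to 11.9) above 0 h. S100a4 was the only one of the 8 members with a mean under 20 CPM.

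S100a1, best known as a regulator of calcium handling in muscle, and S100a13, which takes part in the export of signalling proteins that lack a signal peptide, were at like levels at 0 h. The CAF-1 OFF libraries held 73.1, 131 and 191 CPM of S100a1. Those of HOXA9 OFF held 77.1 CPM at the start, then 212 CPM (200 to 225) and last 22.7 CPM (18.0 to 28.3). It was the only member to end an arm clearly below its 0 h level: 2.75-fold (2.43 to 3.13) above it at 48 h and 3.40-fold (2.65 to 4.39) below it at 96 h. S100a13 measured 72.6, 102 and 123 CPM over the CAF-1 OFF time course against 81.1, 256.5 and 168 CPM over that of HOXA9 OFF, so it too was highest at 48 h in the HOXA9 OFF arm. Its level at 96 h was 2.07-fold (1.81 to 2.37) above 0 h. Because the pair overlaps on opposite strands, reads in the shared 98 bases depend on the strand setting of the counting. Those bases lie at the 5′ starts of both genes, whereas the assay counts 3′ ends.

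Members were called higher or lower when the ratio of their levels, each with 10 CPM added, was at least 2-fold, and the same was done for the 4789 genes that averaged 20 CPM or more. In CAF-1 OFF at 48 h, 3 of 8 members were higher (S100a8, S100a11 and S100a10) and 0 lower, where 2.76% of all genes were higher and 0.0418% lower. At 96 h the count was 4 higher, with S100a1 added, and 0 lower, against 5.22% and 0.856%. Between 48 h and 96 h of that arm 0 members passed in either direction, against 0.71% and 0.167% of all genes. By level alone, S100a9 was 2.07-fold higher at 96 h than at 48 h of this arm, from 6 and 12 UMIs, with an interval from 0.720 to 6.73.
In HOXA9 OFF at 48 h, 6 of 8 members were higher, all but S100a10 and S100a4, and 0 lower, against 13% and 19.6% of all genes. At 96 h, 5 were higher (S100a8, S100a9, S100a6, S100a11 and S100a4) and 1 lower (S100a1), against 18.1% and 39.8%. S100a13 missed the limit, with a log2 ratio of 0.97. From 48 h to 96 h, 5 were higher and S100a1 lower, 9.35-fold (7.45 to 11.9) by level, against 6.56% and 17.8%. The median log2 ratio of the 8 members against 0 h was 0.62 and 0.95 for the CAF-1 OFF times and 1.87 and 3.46 for the HOXA9 OFF times, while that of all genes was 0, -0.08, -0.23 and -0.56.

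**Figure D2:**
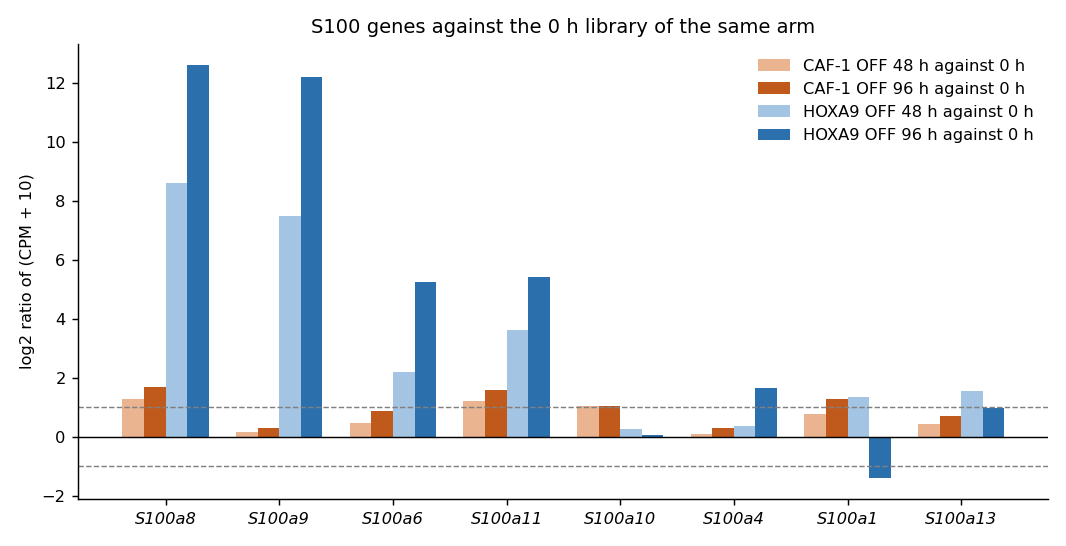
Log2 ratio of each S100 gene at 48 h and 96 h against 0 h of the same arm, on levels with 10 CPM added. Dashed lines mark 2-fold. In HOXA9 OFF the bars run from -1.41 for S100a1 to 12.64 for S100a8 at 96 h, and in CAF-1 OFF none exceeds 1.70.

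Set against each other, the arms differed little at 0 h. None of the 8 members differed by 2-fold between the 0 h libraries, where 0.898% of all genes did in either direction, and the widest gaps by level among members over the floor were 1.37-fold for S100a6 and 1.36-fold for S100a4, lower in HOXA9 OFF, and 1.31-fold for S100a11, higher there. The interval for S100a4, from 0.756 to 2.47, included no difference. At 48 h, 5 members were higher in HOXA9 OFF than in CAF-1 OFF and 0 lower, against 10% and 19.9% of all genes. S100a9 was 1691-fold (777 to 4609.7) and S100a8 279.5-fold (224.5 to 353) higher by level, where CAF-1 OFF held 6 and 80 UMIs of them, and S100a11, S100a6 and S100a13 were 7.14-fold, 2.55-fold and 2.52-fold higher. At 96 h, 5 were higher and 1 lower, against 15.6% and 37.8%. S100a9 was then 21655-fold (12397 to 41910.1), S100a8 2909-fold, S100a11 18.9-fold, S100a6 16.5-fold and S100a4 3.45-fold above the CAF-1 OFF level, and S100a1 was 8.41-fold (6.70 to 10.7) below it. S100a10 was 2.07-fold lower in level, with a log2 ratio of -0.99 after 10 CPM were added, just short of the limit. Estradiol was removed in one arm and kept in the other, and the lines are different clones, so at each later time the clone and the treatment cannot be told apart.

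Together the members held 0.0487%, 0.0910% and 0.114% of all UMIs over the CAF-1 OFF time course, against 0.0494%, 0.857% and 12.35% over that of HOXA9 OFF. At 96 h of HOXA9 OFF, S100a8 and S100a9 alone made up 11.3% of the UMIs. The other 6 members summed to 493, 2749 and 10053 CPM over that arm's time course, and to 487, 894 and 1111 CPM over the CAF-1 OFF one. Because the pair takes up so much of the 96 h library, the other levels there are shares of a smaller remainder. On a total without the S100 genes, the median gene of that comparison shifted by 0.14 on the log2 scale.

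Across the cells of HOXA9 OFF, S100a8 was first concentrated in a minority and later widespread. At 48 h, 45 of 1404 cells held 100 or more S100a8 UMIs and 491 held 0, and 50% of the S100a8 UMIs lay in 89 cells. The S100a9 UMIs were held more narrowly, with 50% in 37 cells. At 96 h, 1141 of 1510 cells (75.6%) held 100 or more, the median cell held 150 UMIs and the highest 638. Of a cell's UMIs, S100a8 and S100a9 together made up 14.4% in the median cell at 96 h, 0.427% at the 10th percentile and 30.1% at most. Cells low in the pair were thus still present at 96 h.
The share of cells with at least 1 UMI may overstate this spread. In 179 cells at 48 h in which eosinophil granule and receptor genes made up at least 5% of the UMIs, a limit set after the data had been seen, S100a8 had a UMI in 26.3% (19.97 to 33.34) of cells at a median depth of 3603 UMIs, at 95.5 CPM. Prg2 carried most of that list, with 16629 of its 19262 CPM, and the receptor gene Ccr3 was at 0.377 CPM. Among the other 1225 cells, of median depth 3531 UMIs, the share was 70.7% and the level 4545 CPM. At 96 h, 16 of 16 such cells had S100a8, with a median of 6 UMIs per cell against 151 in the other 1494 cells. In HOXA9 OFF at 48 h and 96 h, a share of cells with a UMI at or below that in these eosinophil-rich cells was not read as expression. The 99.8% of HOXA9 OFF cells with a UMI at 96 h was not read as a count of expressing cells. Shares in CAF-1 OFF were set against the 0 h library of that arm instead. Free RNA itself was not measured, since no empty droplets were analysed here. After thinning each cell to 1300 UMIs, which kept 1376 of the cells of each library, S100a8 was seen in 49.6% of cells at 48 h and 99.1% at 96 h, and S100a9 in 20.1% and 98.1%.

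S100a8 ran ahead of S100a9. The ratio of their UMIs was 13.3 (5.86 to 37.4) and 10.1 (5.57 to 20.1) in CAF-1 OFF at 48 h and 96 h, 2.20 (2.15 to 2.26) in HOXA9 OFF at 48 h and 1.35 (1.35 to 1.36) at 96 h. The ratio was thus lowest in the library with most of the pair, and the intervals of the CAF-1 OFF libraries overlapped. Within the 48 h library of HOXA9 OFF, the median ratio was 4.24 over 281 cells with at least 20 UMIs of the pair. S100a9 stood at 45.0 CPM in cells without S100a8, 73.4 CPM in cells with 2 to 9 S100a8 UMIs, 3912 CPM in cells with 10 to 99 and 34824 CPM in cells with 100 or more. At 48 h, 349 cells held UMIs of both genes, 564 of S100a8 only and 76 of S100a9 only, and at 96 h the counts were 1497, 10 and 2. A cell with few UMIs can miss the less abundant gene by sampling, so these counts depend on depth.

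**Figure D3:**
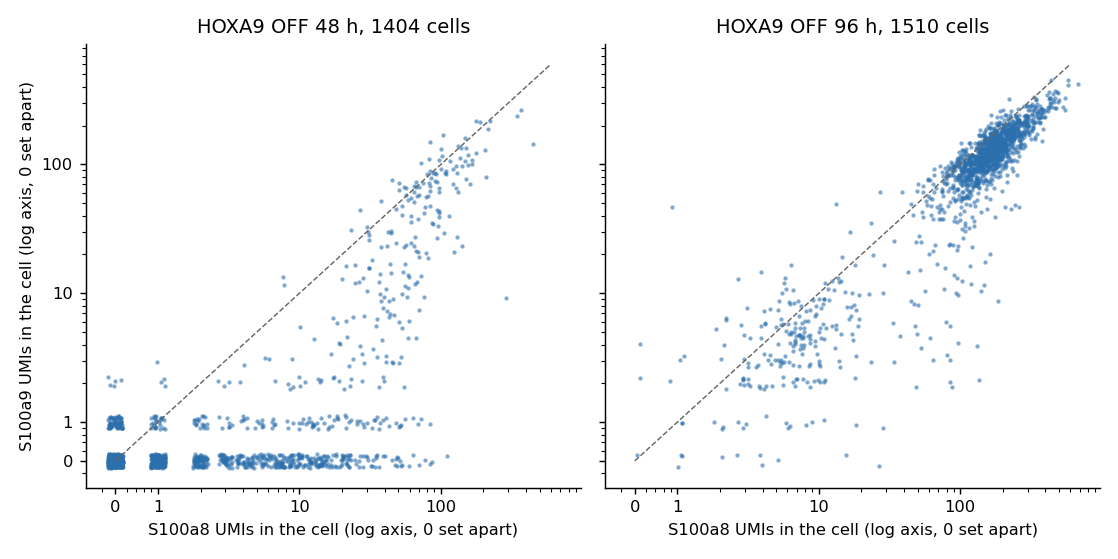
S100a9 against S100a8 UMIs (log axes, cells at 0 set apart) in the 1404 cells at 48 h and the 1510 cells at 96 h of HOXA9 OFF. Each point is a cell, with a small random displacement for visibility, and the dashed line marks equal UMIs. Most cells at 48 h lie near the origin, and most at 96 h lie at 100 or more UMIs of S100a8, close to the line.

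Grouping the HOXA9 OFF cells at 96 h by their S100a8 UMIs separated the other members. Between the 143 cells with 2 to 9 S100a8 UMIs and the 1141 cells with 100 or more, S100a6 stood at 1272 against 4532 CPM and S100a11 at 3040 against 6705 CPM. In the same cells S100a10 stood at 539 against 22.9 CPM, S100a4 at 116 against 3.55 CPM and S100a1 at 42.7 against 11.1 CPM. S100a13 differed least, with 197 against 158 CPM. The cells low in S100a8 thus held more S100a10 and S100a4 per UMI, which the library level of S100a10, close to that at 0 h, does not show.
At 48 h the order was different for S100a1. Between cells with 0 and with 100 or more S100a8 UMIs, S100a10 went from 187 to 44.1 CPM, but S100a1 from 121 to 294 CPM and S100a13 from 210 to 470 CPM. S100a6 went from 449 to 969 CPM and S100a11 from 1395 to 2511 CPM. Hence S100a1 was higher in the S100a8-rich cells than in cells without S100a8 at 48 h. At 96 h it was lower in the S100a8-rich cells than in cells with 2 to 9 S100a8 UMIs. The 48 h cells with 2 to 9 held 261 CPM of S100a1, nearer to the 294 CPM of the top band.

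**Figure D4:**
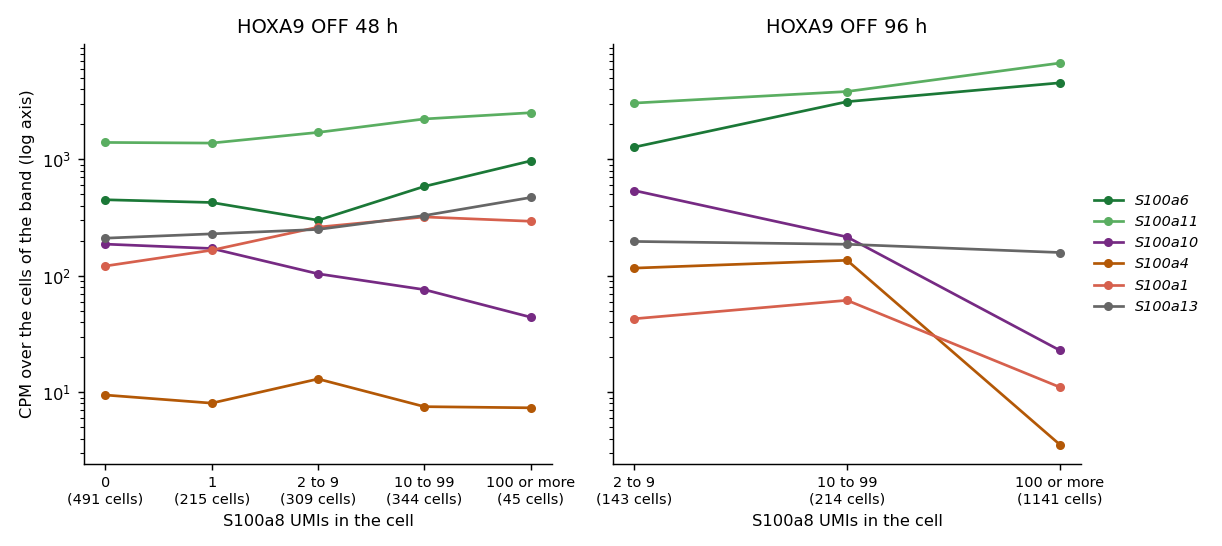
Level (CPM, log axis) of the other 6 members in HOXA9 OFF cells grouped by their S100a8 UMIs, at 48 h and 96 h. At 96 h the bands of 0 and 1 UMI, with 3 and 9 cells, are left out. At both times S100a6 and S100a11 are higher and S100a10 is lower in the top band than in the lowest band drawn, and S100a10 is at 22.9 CPM in the top band at 96 h.

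Across cells thinned to the same depth, the Pearson correlation of log2 values between S100a8 and S100a9 was 0.75 at 48 h and 0.92 at 96 h (1376 cells each). That of S100a8 with S100a11 was 0.30 and 0.51, with S100a6 0.19 and 0.46, with S100a10 -0.13 and -0.48 and with S100a4 0.00 and -0.28. These cells share a library, a depth and a fixed total, so a gene as abundant as S100a8 lowers the counts of others in its own cell. The 5 genes most like S100a8 across cells at 96 h were S100a9, Gm5483, BC100530, Stfa1 and Stfa2l1, with values from 0.92 to 0.78. At 48 h they were S100a9, Lcn2, BC100530, Stfa1 and Gm5483. Stfa1, Stfa2l1, Gm5483 and BC100530 belong to a cluster of near-identical stefin genes, so the split of reads among them is uncertain. Lcn2 encodes the secondary-granule protein lipocalin 2. The 5 genes least like S100a8 at 48 h were Rpl13a, Plac8, Prg3, Rps19 and Rps23 (-0.37 to -0.33), of which Rpl13a, Rps19 and Rps23 encode ribosomal proteins and Prg3 an eosinophil granule protein.

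The scarce members at 96 h lay in few cells. In HOXA9 OFF, 50% of the 133 S100a4 UMIs were in 13 of 1510 cells. In the 26 cells with 2 or more S100a4 UMIs, S100a8 stood at 2101 CPM, a list of 7 monocyte and macrophage genes at 1795 CPM and the neutrophil list at 1991 CPM. In the 1450 cells without S100a4 the same values were 69659.8, 323 and 40129.8 CPM. In the 86 cells with 2 or more S100a10 UMIs, the neutrophil list stood at 4703 CPM against 43631.5 CPM in cells without S100a10, the monocyte and macrophage list at 914 against 291 CPM and the eosinophil list at 11211 against 1711 CPM. The cells holding S100a4 or S100a10 thus held less of the neutrophil list and more of the monocyte list. The eosinophil list was higher in the S100a10 cells but lower in the S100a4 cells, at 133 against 3466 CPM for S100a4. Cells with 2 or more UMIs were also deeper. Their median was 4681.5 against 2012.5 UMIs for S100a4 and 3084 against 1975 UMIs for S100a10. Over the whole library the monocyte and macrophage list was at 411 CPM, with 466 CPM at 0 h, and its part in the S100a4 level was not tested.
S100a6 was low in eosinophil-rich cells. In the 179 such cells at 48 h it stood at 27.7 CPM, against 452.5 CPM over the library, with S100a4 at 0 UMIs and S100a10 at 179 CPM. In the 102 cells at 96 h without S100a6, the eosinophil list stood at 23102 CPM, against 3225 CPM over the library, and the neutrophil list at 28103 CPM and S100a8 at 25479.7 CPM, against 37475 and 65259.5 CPM. The eosinophil list itself moved with the arm, at 1481, 19262 and 3225 CPM in HOXA9 OFF, and its part in the S100a6 timing was not tested.
S100a1 at 48 h was found with primary granule genes (Elane, Mpo, Prtn3, Ctsg and Ms4a3, made at the promyelocyte stage). The 307 cells with 2 or more S100a1 UMIs held this list at 8534 CPM, against 2884 CPM in cells without S100a1. When the 48 h cells were put into 4 groups of equal size by the share of this list, S100a1 stood at 69.6 CPM in the lowest and 290.5 CPM in the highest, and S100a6 at 774 and 83.5 CPM. Over the HOXA9 OFF libraries the list went from 5581 to 5258 and 79.2 CPM, and the cell cycle list from 836 to 344 and 7.38 CPM. S100a1 went from 77.1 to 212 and 22.7 CPM. All were lowest at 96 h, but at 48 h S100a1 was above its 0 h level and both lists were below theirs. The part of these lists in the S100a1 level was not tested.

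In CAF-1 OFF, S100a8 was held by few cells and at few UMIs. At 0 h a UMI was in 0 of 647 cells, where 3 counts would make a share of 0.464% of cells with a UMI, and the later libraries had it in 4.75% and 5.598% of cells. The highest cell held 10 UMIs at 48 h and 11 at 96 h, and 9 cells held 50% of the UMIs at each time. After thinning, S100a8 was in 0 of 633, 1.54% of 907 and 2.55% of 902 cells. Of the kept barcodes, 1 at 0 h and 1 at 96 h had the same sequence as a barcode of a HOXA9 OFF library, and neither held S100a8 in CAF-1 OFF.
The cells with S100a8 also held more S100a11. At 48 h, S100a11 stood at 220 CPM in the 883 cells without S100a8, 528 CPM in the 32 cells with 1 UMI and 722 CPM in the 11 cells with 2 to 9. At 96 h the values were 286, 513 and 822.5 CPM in 860, 32 and 17 cells. S100a10 ran from 227 to 522.5 and 470 CPM at 48 h and from 237 to 288 and 381 CPM at 96 h, a narrower range at the later time.
Ordered by the neutrophil list into 4 groups of equal size, the CAF-1 OFF cells at 48 h showed S100a8 at 2.21 CPM in the lowest and 40.4 CPM in the highest, S100a11 at 145 and 427 CPM and S100a10 at 159 and 360 CPM. S100a6 was nearly level, at 165 and 182 CPM. At 96 h the lowest and highest groups stood at 1.52 and 60.1 CPM for S100a8, 219 and 437 CPM for S100a11, 205.5 and 281 CPM for S100a10 and 231 and 243 CPM for S100a6. In this arm S100a10 was thus higher where the neutrophil list was, whereas in HOXA9 OFF at 96 h it stood at 329 CPM in the lowest and 17.9 CPM in the highest group. The list was not made up alike in the arms. Mmp8 gave 582 of its 703 CPM in CAF-1 OFF at 48 h, and Ngp, with 11396 of 37475 CPM, led it in HOXA9 OFF at 96 h. The primary granule list gave the same order at 48 h of CAF-1 OFF, with S100a8 from 0.734 to 53.9 CPM and S100a11 from 137 to 454 CPM. Megakaryocyte genes, at 45.3, 502 and 2696 CPM, and mast cell and basophil genes, at 259, 1427 and 4000 CPM in CAF-1 OFF, also went up with time, and their part in the member levels was not tested. Nor was the order particular to the neutrophil list: between the lowest and highest groups by the megakaryocyte list at 48 h, S100a8 stood at 4.70 and 37.8 CPM, S100a11 at 161 and 388.5 CPM and S100a10 at 169.9 and 370 CPM. At 96 h S100a6 stood at 180 and 308 CPM in those groups. By the mast cell and basophil list the 96 h order was the opposite, with S100a8 at 51.99 CPM in the lowest and 3.01 CPM in the highest group and S100a11 at 485 and 226 CPM, while S100a6 stood at 189 and 269 CPM.

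**Figure D5:**
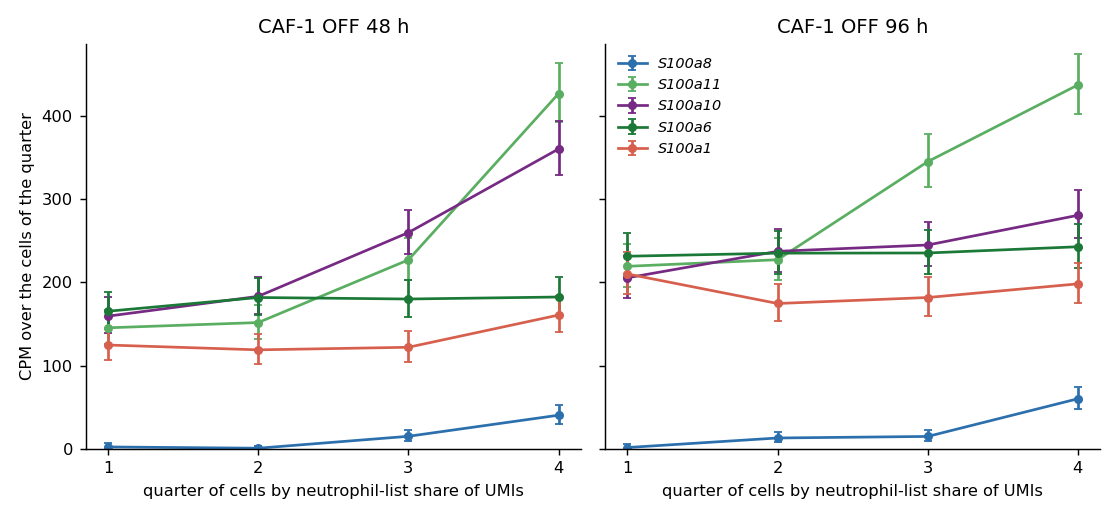
Member levels (CPM) in CAF-1 OFF cells at 48 h and 96 h, put into 4 groups of equal size by the share of their UMIs in the neutrophil list. Bars are exact 95% Poisson intervals. S100a8 and S100a11 are highest in the group richest in the list, and S100a6 is nearly level (165 to 182 CPM between the lowest and highest group at 48 h).

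Known partners and receptors of the family were followed as a list of 33 genes. In CAF-1 OFF, 3 of 33 were higher and 0 lower at 48 h, against 2.76% and 0.0418% of all genes. At 96 h the counts were 6 and 0, against 5.22% and 0.856%. In HOXA9 OFF, 11 were higher and 1 lower at 48 h, against 13% and 19.6%. At 96 h they were 14 and 3, against 18.1% and 39.8%. These shares cover genes averaging 20 CPM or more. The scarcest partners, such as Mcam and Il1a at no more than 0.284 CPM, could not pass 2-fold with 10 CPM added. Anxa1, whose product binds S100a11, measured 110, 545 and 1114.5 CPM over the CAF-1 OFF time course, against 82.3, 1457.5 and 3246 CPM over that of HOXA9 OFF, so it went up with S100a11 from library to library in both arms. Anxa2, the partner of S100a10, measured 128, 271 and 260 CPM over the CAF-1 OFF time course, close to S100a10 itself, against 181, 240 and 747 CPM over that of HOXA9 OFF, where S100a10 ended at 117 CPM. Cacybp, a binder of S100a6 that takes part in protein turnover, measured 394, 260.5 and 196 CPM over the CAF-1 OFF time course against 432, 146.5 and 57.9 CPM over that of HOXA9 OFF. Myh9, the myosin bound by S100a4, was at 23.4, 55.0 and 97.3 CPM in HOXA9 OFF.
Of the calprotectin receptors, Tlr4 was at 2.13 to 14.8 CPM and Ager, the RAGE receptor, at 0 to 3.97 CPM over the 6 libraries. Bsg, which encodes the receptor basigin, was at 365, 236 and 83.7 CPM in HOXA9 OFF, 4.36-fold lower at 96 h than at 0 h, and at 399 to 443 CPM in CAF-1 OFF. Its relatives Emb and Nptn went the other way in HOXA9 OFF without passing 2-fold, from 341 to 638 CPM and from 64.7 to 93.9 CPM between 0 h and 96 h. Alcam, another receptor of the list, was called higher there, at 0.716 CPM (3 UMIs) and 12.8 CPM. Alox5ap, which passes arachidonate to 5-lipoxygenase, measured 182, 2001 and 2806 CPM over the HOXA9 OFF time course, against 225, 372.5 and 599.5 CPM over the CAF-1 OFF one. Alox5, the gene of that enzyme, was scarce, at 0, 0 and 1.42 CPM in HOXA9 OFF and 0, 2.33 and 6.12 CPM in CAF-1 OFF.

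The member profiles over the 6 libraries ranged from alike to unrelated or opposed. The correlation of log2 levels was 0.99 between S100a8 and S100a9 and between S100a8 and S100a11, and 0.95 between S100a8 and S100a6. It was -0.27 between S100a8 and S100a10 and -0.38 between S100a8 and S100a1, 0.59 between S100a10 and S100a1, and 0.03 between S100a10 and S100a13. The genes nearest to S100a8 were Plin2, Abtb1, Adrbk1, Zfand6 and I830077J02Rik (Pearson r from 0.9991 to 0.9996), and the nearest to S100a10 were Cdkn2c, Ing1, Dync2li1, Tmem205 and Abhd11os (0.95 to 0.99). Those nearest to S100a13 were Arl11, Siglecf, Cox7a2l, Mag and Adssl1 (0.99 each). With 6 points, of which 1 stands far apart, these values describe the libraries and carry no test.

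The other 9 S100 genes of the table were at or near 0. S100a3 had 1, 20 and 26 UMIs in CAF-1 OFF and at most 3 in HOXA9 OFF, and S100a5 had 0, 8 and 19 UMIs in CAF-1 OFF and at most 1 in HOXA9 OFF. S100a7a was seen with 9 UMIs in HOXA9 OFF at 96 h. S100a16, S100g and S100z had 0 UMIs in every library.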

How the data were processed

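The deposited table held UMI counts per gene and cell barcode, 7821 barcodes by 27998 genes from 6 libraries. The authors sequenced 10x Chromium 3′ v2 libraries and counted molecules against mm10 (GRCm38). The submitters' processing notes name Cell Ranger 3.0.1, Scanpy 1.4.6 and Seurat 3.0.1.

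Cells with 200 to 6000 detected genes and at most 10% mitochondrial UMIs were kept, after the study's limits, which left 5872. Doublets were called with Scrublet within scanpy 1.11.5 (125 of 5872 cells) and kept, with an alternative without them. In all, 34 barcode sequences occurred in more than 1 library. Levels are the UMIs of a gene summed over a library's cells, per 1000000 UMIs of the library (CPM), with exact Poisson intervals. Folds have exact conditional binomial intervals and shares exact Clopper-Pearson intervals, at 95%. They cover counting error only. A gene with 0 UMIs was given a floor of 3 counts per library. No group had a further library, so none was tested against another. Higher and lower mean at least 2-fold on CPM with 10 added, and the background was counted over the 4789 genes with a mean of 20 CPM or more. Shares of cells were compared after thinning each cell to 1300 UMIs, which left out 206 shallower cells. Genes named beside the members were those of the lists of markers, partners and other S100 genes, and the 5 genes closest to a member by Pearson correlation. The genes least like S100a8 across cells at 96 h are not reported here. The members and lists were chosen with earlier results of these data known. Promoter sequences and positions are from RefSeq (GRCm38.p6), with 7 of 8 members matched to a promoter. The size calls recovered known changes in counts drawn for the purpose. Alternatives were other added values, fold limits, scalings (edgeR 4.0.16 TMM and median-of-ratios factors), filters and thinning. Python 3.11.15, numpy 2.4.6, scipy 1.17.1, matplotlib 3.10.9 and R 4.3.3 were used.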

Additional observations from a re-analysis of the deposited data

Results flagged for a closer look

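S100a1 moved in opposite directions in the arms at 96 h, with a log2 ratio against 0 h of 1.27 for CAF-1 OFF against -1.41 for HOXA9 OFF. The difference was not tested, since each group is 1 library.

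Barcodes removed from the comparisons held members above the level in removed barcodes at 0 h. In HOXA9 OFF at 48 h, 193 removed barcodes held S100a8 at 706.2 CPM, S100a9 at 87.06, S100a6 at 198.3, S100a11 at 483.7, S100a1 at 96.74 and S100a13 at 179 CPM. The 927 barcodes removed at 0 h held 0, 0, 47.95, 36.8, 20.07 and 26.76 CPM of these genes. In HOXA9 OFF at 96 h only 3 barcodes were removed, with S100a8 at 32883.6 CPM, S100a9 at 16231.0, S100a6 at 2107.9, S100a11 at 4426.6 and S100a13 at 632.4 CPM. In CAF-1 OFF, 155 barcodes removed at 96 h held S100a11 at 135.9, S100a10 at 128.4 and S100a1 at 105.7 CPM, and 208 removed at 48 h held S100a1 at 94.72 CPM, where the 463 removed at 0 h held 45.82, 51.32 and 38.49 CPM of the 3 genes.

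Among S100 genes outside the 8, the CAF-1 OFF libraries at 48 h and 96 h held 3.578 and 4.82 CPM of S100a3, and the latter 3.522 CPM of S100a5, with 0.2373 CPM and 0 UMIs at 0 h. The HOXA9 OFF library at 96 h held 2.554 CPM of S100a7a, with 0 UMIs in the other 5 libraries.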

How the results depend on the processing

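No paired analysis was possible because each group is 1 library, and for the same reason no replicate could be left out. No direction that passed 2-fold reversed under any alternative run. The counts of members past 2-fold changed as follows. With 50 CPM added, CAF-1 OFF had 0 higher at 48 h and 1 at 96 h (S100a11), and HOXA9 OFF had 0 lower at 96 h. At a 4-fold limit CAF-1 OFF had 0 higher at both times, HOXA9 OFF 0 lower at 96 h, and 3 were higher in HOXA9 OFF than in CAF-1 OFF at 48 h. Median-of-ratios factors gave 0 lower for HOXA9 OFF at 96 h, with S100a1 at a log2 ratio of -0.99. S100a10 joined S100a1, for 2 members lower in HOXA9 OFF than in CAF-1 OFF at 96 h, with 1 CPM added, at a 1.5-fold limit, with thinned cells and without mitochondrial and ribosomal protein genes in the total. The 1.5-fold limit also gave 1 (S100a10) at 48 h. With the CAF-1 OFF library at 0 h as the base, an alternative chosen after seeing the data, HOXA9 OFF had 6 higher at 48 h and 6 higher and 1 lower at 96 h.

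Over all 15185 genes with a UMI, 4 (0.0263%) were lower in CAF-1 OFF at 48 h, instead of 2 (0.0418%) of the 4789. In HOXA9 OFF at 96 h, 1391 (9.16%) were higher, instead of 865 (18.1%), so the count was larger but the share smaller. TMM and median-of-ratios factors moved the median gene by 0.25 and 0.20 at 48 h and by 0.38 and 0.44 at 96 h of HOXA9 OFF (log2). The higher share of all calls there went from 39.8% to 54.7% and 51.1% at 48 h and from 31.2% to 43.9% and 46.3% at 96 h.

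Taken as a median over cells, the S100a8 to S100a9 ratio was 4.235 and 1.339 in HOXA9 OFF at 48 h and 96 h. The percent of UMIs held by the members was then 0.04505, 0.07915 and 0.1069 over the CAF-1 OFF time course, against 0.04287, 0.3703 and 15.62 over the HOXA9 OFF one. Over all deposited barcodes it was 0.04607 and 0.1106 in CAF-1 OFF at 0 h and 96 h, and 0.04372 and 0.8312 in HOXA9 OFF at 0 h and 48 h. Depth limits S100a9 in CAF-1 OFF (at most 12 UMIs) and S100a4 in every library (at most 133 UMIs).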
